A study of Mus musculus with 23 samples.

Results

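The genes described here are 32 genes of fibroblasts and of the matrix that fibroblasts lay down, chosen by name as a measure of the RNA that feeder cells leave in a culture of pluripotent cells. All 32 were found once, among 53715 genes, in each of the 3 tables of ES cells, iPS cells and embryos. The study compared mouse pluripotent cells and early embryos with and without LIN28, an RNA-binding protein that blocks maturation of the let-7 microRNAs. RNA was sequenced from 23 samples, of which 15 were embryonic stem (ES) cell libraries, 6 were induced pluripotent stem (iPS) cell libraries and 2 were pools of embryos. Each of the 7 cell groups had 3 libraries and each embryo group 1, and nothing in the labels says that the 3 came from separate cultures, so a p-value measures the spread between these libraries, which may be technical.

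The ES cell groups were Lin28a-null cells, cells labelled Lin28b-null, ilet7 cells given doxycycline for 3 days to switch on a let-7 transgene (ilet7+Doxy), ilet7 cells without the drug (ilet7-Ctrl), and wild-type (WT) cells. The labels do not say whether the null lines were single clones made by genome editing or lines from knockout mice, both of which the study used, nor do they name the parent line of the ilet7 cells. The iPS cell groups were Lin28a/b double knockout (DKO) cells and WT cells, both reprogrammed from embryonic fibroblasts (MEFs). All cell groups shared the same culture, 2 days on gelatin with MEF feeders in medium with LIF and 2 inhibitors, and after trypsin a step to deplete MEFs came before lysis. The embryo groups were pools of C57BL/6J embryos, one injected as zygotes with small interfering RNA against Lin28a (siLin28) and one titled WT, and embryos are grown without feeders. Their stage is not given, and the treatment field names a knockdown for both pools, so that their titles set the groups.

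Fibroblasts secrete collagen as a triple helix of chains, trim and cross-link it outside the cell, and bind it to small proteoglycans and to adhesive glycoproteins such as fibronectin. Mitotically inactive MEFs are laid under ES cells because they supply attachment and growth factors, and they can be depleted because they settle on a dish faster than ES cells do. Naive ES cells are epithelial and are not known for fibrillar collagen, whereas fibronectin and vimentin are made by many cell types and can come from pluripotent cells too.

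Levels are in TPM, a transcript abundance that is scaled for gene length and to a fixed total per library, so that genes can be compared with each other within a library. The read depth behind a value is not kept in TPM and is unknown, as is the precision of low values. The pluripotent label was borne out by Pou5f1, which lay between 915 and 1771 TPM over the 21 cell libraries. Lin28a lay between 14.6 and 20.96 TPM in Lin28a-null libraries against 31.5 to 61.2 TPM in WT ES libraries, so its RNA was lower and not lost. Lin28b went against its label, at 12.5 to 13.8 TPM in the libraries labelled Lin28b-null against 3.63 to 5.18 TPM in WT ES libraries, and at 10.3 to 11.6 TPM in DKO against 2.16 to 4.14 TPM in WT iPS libraries. One WT ES library, replicate 2, stood apart from the other 2 in the members. The members' summed level and median change against WT ES cells are therefore given with and without it. Counts of genes outside the members in other lists are given with it only.

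Summed over the 32 members, fibroblast and matrix transcripts made up 0.191% to 0.954% of the TPM of a cell library, and 0.0227% of the siLin28 pool and 0.0143% of the WT embryo pool. The sum was 8566, 6666 and 6309 TPM in Lin28a-null ES libraries, 2272, 1953 and 3304 TPM in libraries labelled Lin28b-null, 2649.9, 2384 and 2510.4 TPM in ilet7+Doxy libraries, 1909.6, 2151 and 2116 TPM in ilet7-Ctrl libraries, and 2583, 4813 and 2843 TPM in WT ES libraries. Every Lin28a-null library thus lay above every other ES library, and the highest WT ES library was replicate 2. The 3 tables were normalized separately, and in the iPS table the sum was 7206, 9537 and 6666 TPM in DKO and 4353, 5559 and 7105 TPM in WT libraries, which overlap. The ratio of mean sums was 2.10 for Lin28a-null over WT ES cells, 0.735 for labelled Lin28b-null over WT ES cells, 1.22 for ilet7+Doxy over ilet7-Ctrl, 0.603 for ilet7-Ctrl over WT ES cells and 1.38 for DKO over WT iPS cells. Without WT ES replicate 2 the log2 ratio to WT was 1.40 for Lin28a-null cells, -0.11 for labelled Lin28b-null cells and -0.40 for ilet7-Ctrl cells, against 1.07, -0.44 and -0.73 with it. Since the members were chosen with results of these data known, the sum was given no test. In bulk RNA, fewer fibroblasts and less RNA per fibroblast cannot be told apart, nor can fibroblast RNA and a transcript made by the pluripotent cells themselves.

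**Figure D1:**
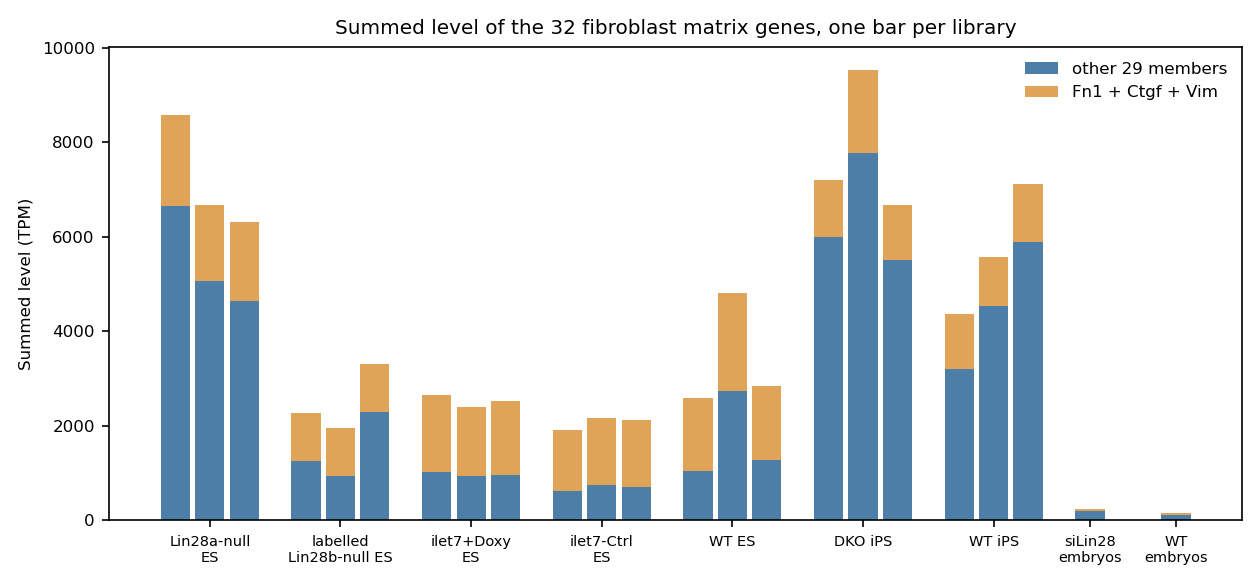
Summed level of the 32 members in TPM (y axis), with one bar per library and the libraries grouped along the x axis, the blue part being the 29 members other than Fn1, Ctgf and Vim and the orange part those 3 genes. The Lin28a-null libraries reach 6309 to 8566 TPM, the other ES libraries 1909.6 to 4813 TPM, the iPS libraries 4353 to 9537 TPM and the 2 embryo pools 227 and 143 TPM.

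Fn1, Ctgf and Vim took very unequal shares of that sum. They made up 22.4% to 26.7% of it in Lin28a-null libraries, 30.7% to 52.2% in libraries labelled Lin28b-null, 61.3% to 62.1% in ilet7+Doxy, 65.1% to 67.3% in ilet7-Ctrl and 43.1% to 59.9% in WT ES libraries. In iPS libraries their share was 16.8% to 18.6% in DKO and 17.1% to 26.8% in WT. Without these 3 genes the mean sum was 5445 TPM in Lin28a-null against 1685 TPM in WT ES libraries, and 964 TPM in ilet7+Doxy against 693 TPM in ilet7-Ctrl libraries. Fn1 was the highest member in all 5 ES groups, while Col3a1 was the highest in both iPS groups, and Twist2 was the lowest member in all 7 cell groups.

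Lin28a-null ES cells were compared with WT ES cells to ask how far the fibroblast transcripts moved with loss of Lin28a. Of the 32 members 30 rose, 1 fell and 1 did not pass, where rose and fell mean an adjusted p under 0.05 by limma on log2(TPM + 1) among genes that averaged 1 TPM or more in the 6 libraries. Over the 16060 genes tested, 20.4% rose and 17.8% fell (3283 and 2854 genes), a balance that turned under quantile normalization, where 2988 rose and 3526 fell. The members' median log2 change was 1.87, against 0.02 over all genes tested, and it lay between 1.55 and 2.30 with each library left out, the highest value being without WT replicate 2. In 30 members every Lin28a-null library was above every WT library, and in 1 every one was below, against 27.7% and 25.5% of all genes tested. Genotype and line origin cannot be told apart in this comparison.

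The 5 fibrillar collagen chains all rose, by log2 changes of 1.64 to 2.09. Col1a1, the main chain of type I collagen, on chromosome 11 (chr11:94936224-94953042, mm10), had 892, 673 and 644 TPM in Lin28a-null libraries against 130.5, 388 and 166 TPM in WT libraries, a change of 1.84 ± 0.38 in log2 (SE, adjusted p = 0.00889 by limma). Col1a2, the second chain of the same molecule, had 616, 471 and 446 TPM against 103, 290.5 and 118 TPM in WT libraries, a change of 1.73 ± 0.37 in log2 (SE, adjusted p = 0.0106 by limma). For both genes the groups did not overlap, and WT replicate 2 was well above the other WT libraries. Col3a1, of type III collagen, had 702, 505 and 518 TPM in Lin28a-null libraries against 114, 352 and 149.9 TPM in WT libraries, a change of 1.64 ± 0.39 in log2 (SE, adjusted p = 0.0151 by limma). Col5a1, which helps to start fibrils, changed by 1.87 and its partner Col5a2 by 2.09. Collagen VI chains form beaded filaments near the cell surface. Col6a1, the more abundant of the pair, had 129, 90.5 and 79.7 TPM in Lin28a-null libraries against 13.4, 44.9 and 17.6 TPM in WT libraries, a change of 2.10 ± 0.42 in log2 (SE, adjusted p = 0.00793 by limma), and Col6a2 rose by 1.93.

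Promoter sequences show how different the start sites of members that moved together are, and 4 are printed for that reason, chosen after the values were seen. RefSeq (GRCm38.p6) gave a promoter window, 250 bases before to 50 after a gene's start, for 20 of the 32 members. Both strands were searched for CCAAT, the box bound by NF-Y, and for TATAAA, the element bound by TBP, and no match of one overlapped the other. The 20 genes had 22 windows. CCAAT was in 6 of the 22, against 37.4% of 32851 promoters of the same length, and TATAAA in 5 of the 22, against 13.6%. The Col1a2 window (chr6:4505368-4505667) holds CCAAT 109 bases before the start, the Col3a1 window (chr1:45311288-45311587) TATAAA 117 bases before, the Vim window (chr2:13574061-13574360) CCAAT 196 bases before, its reverse 94 before and TATAAA 32 before, and the Twist2 window (chr1:91801211-91801510) CCAAT 63 bases before. All 4 genes lie on the plus strand, and each sequence runs 5′ to 3′ with matches of either motif, on either strand, in capitals.
Col1a2: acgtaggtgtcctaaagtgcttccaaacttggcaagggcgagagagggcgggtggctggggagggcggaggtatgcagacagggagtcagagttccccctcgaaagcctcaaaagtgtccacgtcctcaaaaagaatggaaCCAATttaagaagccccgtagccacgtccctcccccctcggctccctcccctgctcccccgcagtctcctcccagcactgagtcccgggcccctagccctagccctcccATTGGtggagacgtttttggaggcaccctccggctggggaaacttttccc
Col3a1: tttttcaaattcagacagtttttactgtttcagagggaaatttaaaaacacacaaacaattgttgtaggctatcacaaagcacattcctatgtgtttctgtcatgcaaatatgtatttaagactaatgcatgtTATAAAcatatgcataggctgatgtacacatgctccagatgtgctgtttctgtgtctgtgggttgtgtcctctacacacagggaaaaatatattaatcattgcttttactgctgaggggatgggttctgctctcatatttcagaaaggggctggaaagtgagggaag
Vim: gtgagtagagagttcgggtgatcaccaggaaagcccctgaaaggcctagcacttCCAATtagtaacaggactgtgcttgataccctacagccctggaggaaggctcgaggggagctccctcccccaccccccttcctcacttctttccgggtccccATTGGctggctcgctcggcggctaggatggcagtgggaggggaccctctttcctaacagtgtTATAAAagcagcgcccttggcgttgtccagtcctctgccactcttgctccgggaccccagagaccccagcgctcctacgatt
Twist2: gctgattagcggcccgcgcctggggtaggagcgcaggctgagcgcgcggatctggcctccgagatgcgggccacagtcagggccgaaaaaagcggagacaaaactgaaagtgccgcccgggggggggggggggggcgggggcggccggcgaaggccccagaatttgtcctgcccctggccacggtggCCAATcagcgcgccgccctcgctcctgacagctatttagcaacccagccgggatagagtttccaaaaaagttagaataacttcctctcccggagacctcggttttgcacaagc
In the Col1a2 window a second match, on the other strand, lies at the start itself. Col1a2 and Col3a1, whose levels ran closely together, shared no match, and Twist2, the member of lowest level, shared CCAAT with Col1a2 and Vim.

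The 3 small leucine-rich proteoglycans, which coat collagen fibrils and set their spacing, rose by 1.88 to 1.98. Bgn, biglycan, had 618, 492 and 454 TPM in Lin28a-null libraries against 81.9, 264 and 103 TPM in WT libraries, a change of 1.98 ± 0.40 in log2 (SE, adjusted p = 0.00849 by limma). Dcn, decorin, changed by 1.96 and Lum, lumican, by 1.88. All Lin28a-null libraries were above all WT libraries for each of the 3. Genes of matrix cross-linking and turnover rose likewise, all 4 of them, by 1.80 to 2.29. Lox, the oxidase that starts cross-links between collagen chains, had 706, 543 and 487 TPM against 101, 259.6 and 143 TPM in WT libraries, a change of 1.87 ± 0.32 in log2 (SE, adjusted p = 0.00467 by limma). Loxl1, a relative that acts on elastin, changed by 1.80, the gelatinase Mmp2 by 1.93 and the protease inhibitor Timp3 by 2.29.

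Matrix glycoproteins split, with 3 of 4 up and Fn1 not passing. Fn1, fibronectin, on chromosome 1 (chr1:71585520-71653200), had 1345, 1088 and 1189 TPM in Lin28a-null libraries against 1022, 1395 and 1016 TPM in WT libraries, a change of 0.09 ± 0.14 in log2 (SE, adjusted p = 0.649 by limma). The groups overlapped, although Fn1 was the most abundant member in both. Fbn1, the fibrillin of microfibrils, rose by 2.27, Postn, periostin, by 1.87 and Fbln2, fibulin-2, by 1.62. The secreted matricellular proteins split too. Ctgf, a growth factor-like target of YAP that the later annotation calls Ccn2, on chromosome 10 (chr10:24595442-24598683), had 266, 249.6 and 232 TPM against 390.0, 549 and 410.2 TPM in WT libraries, a change of -0.84 ± 0.13 in log2 (SE, adjusted p = 0.00333 by limma). It was the one member that fell, and every Lin28a-null library lay below every WT library. Igfbp7 and Fstl1, secreted binding proteins of growth factors, rose by 1.97 and 1.16.

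The contractile and cytoskeletal members rose, all 3, by 1.05 to 1.80. Vim, vimentin, the intermediate filament of mesenchymal cells, had 304, 272 and 261 TPM in Lin28a-null libraries against 135, 128 and 140.0 TPM in WT libraries, a change of 1.05 ± 0.08 in log2 (SE, adjusted p = 0.000172 by limma). Its WT libraries were close together, replicate 2 included, which sets Vim apart from the collagens. Acta2, smooth muscle actin, changed by 1.80 and Tagln, an actin-bundling protein, by 1.31. S100a4, a calcium-binding protein often used as a fibroblast marker, had 44.95, 41.8 and 32.4 TPM against 4.61, 11.1 and 3.57 TPM in WT libraries, a change of 2.58 ± 0.35 in log2 (SE, adjusted p = 0.00188 by limma), the largest log2 change of the 32, for which it was named after its values were seen. S100a6, a more abundant relative of it, had 207, 186 and 106 TPM in Lin28a-null libraries against 32.6, 59.5 and 19.1 TPM in WT libraries, a change of 2.22 ± 0.42 in log2 (SE, adjusted p = 0.00623 by limma).

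Receptors and other surface proteins rose in all 3 cases. Cd44, the hyaluronan receptor, had 73.1, 60.2 and 46.7 TPM in Lin28a-null libraries against 8.01, 15.9 and 9.55 TPM in WT libraries, a change of 2.36 ± 0.26 in log2 (SE, adjusted p = 0.000859 by limma). Thy1, a surface antigen of fibroblasts, changed by 1.39 and Pdgfrb, the PDGF receptor of mesenchymal cells, by 1.41. The 3 mesenchymal transcription factors rose as well. Twist1 had 24.4, 21.9 and 21.5 TPM against 6.95, 11.9 and 8.95 TPM in WT libraries, a change of 1.23 ± 0.19 in log2 (SE, adjusted p = 0.00278 by limma), and Prrx1, of limb mesenchyme, had 45.5, 35.7 and 27.4 TPM against 6.29, 15.2 and 8.67 TPM, a change of 1.80 ± 0.31 in log2 (SE, adjusted p = 0.00466 by limma). Twist2, with 15.2, 9.35 and 9.62 TPM against 0.632, 2.05 and 1.24 TPM in WT libraries, showed a change of 2.44 ± 0.29 in log2 (SE, adjusted p = 0.00109 by limma), and its low level makes the log2(TPM + 1) scale understate the change. Of the 31 calls 26 were made in every leave-one-out fit. The other 5, Col3a1, Col6a2, Fbln2, Lum and Postn, did not pass without Lin28a-null replicate 1 (25 members then rose). Col3a1 and Lum also did not without WT replicate 3, and Postn also not without any one of Lin28a-null 2, Lin28a-null 3, WT 1 and WT 3 (adjusted p between 0.0522 and 0.0748).

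**Figure D2:**
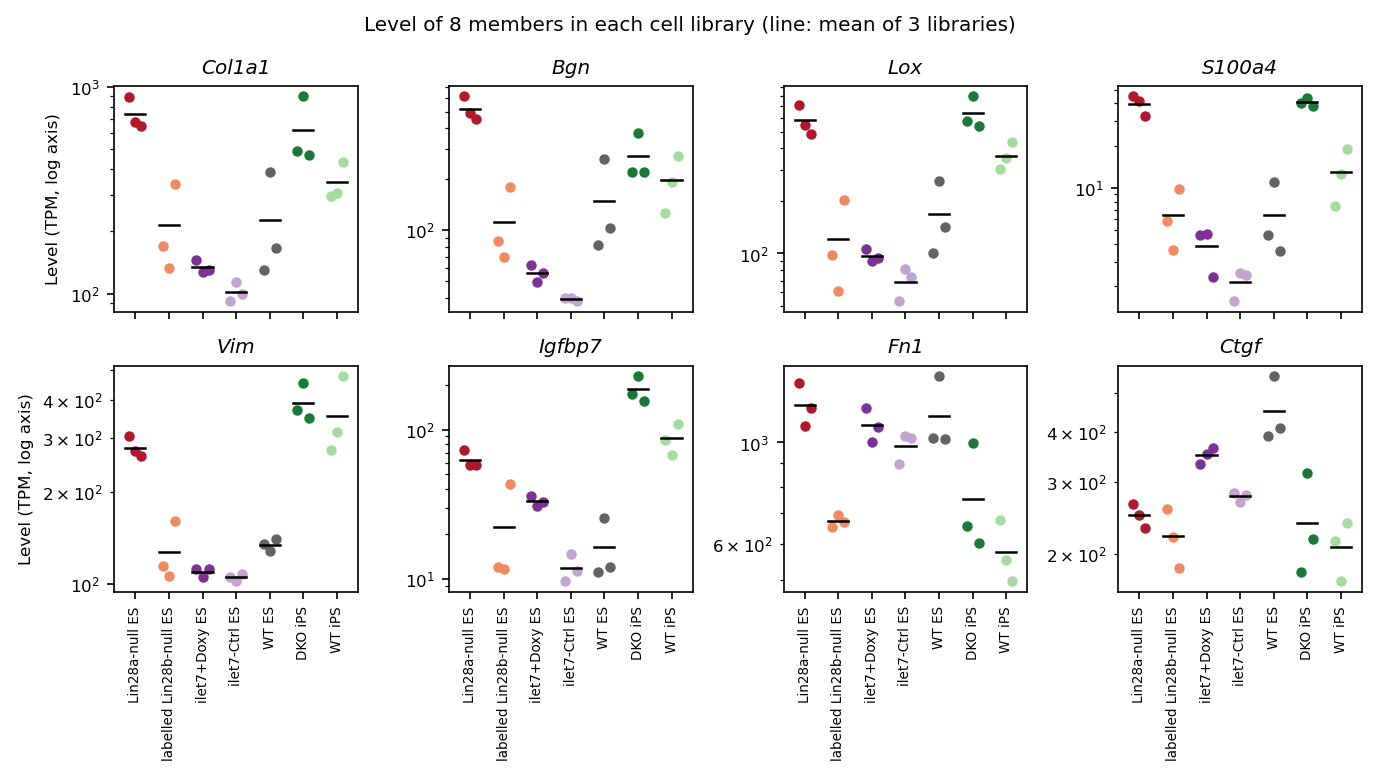
Level in TPM on a log axis (y axis) of 8 members in each of the 7 cell groups along the x axis, with one dot per library and a line at the mean of 3. In ES cells Col1a1, Bgn, Lox and S100a4 are high in all 3 Lin28a-null libraries, while Ctgf is highest in WT libraries and Igfbp7 is higher with doxycycline than without.

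Genes outside the members were counted in the same way, and their counts stand against the 20.4% of all genes that rose and the 17.8% that fell. Of 30 other fibroblast matrix genes 24 rose and 0 fell in Lin28a-null cells, with a median of 1.57. Thbs1, thrombospondin-1, had 406, 305 and 257 TPM in Lin28a-null libraries against 51.4, 145 and 64.7 TPM in WT libraries, a change of 2.00 ± 0.37 in log2 (SE, adjusted p = 0.00601 by limma), and Sparc, a collagen-binding protein, had 1219, 1010.5 and 945 TPM against 334, 681 and 376 TPM, a change of 1.25 ± 0.26 in log2 (SE, adjusted p = 0.00888 by limma). Cyr61, a relative of Ctgf, did not pass, at 229.6, 192 and 170.4 TPM against 181, 329.8 and 183 TPM, a change of -0.18 ± 0.24 in log2 (SE, adjusted p = 0.589 by limma). Of 18 genes of collagen assembly 9 rose and 0 fell, with a median of 0.55, among them Bmp1, the procollagen protease (2.03), whereas Serpinh1, the collagen chaperone, did not pass (377, 149 and 323 TPM against 173, 209.5 and 184 TPM, a change of 0.48 ± 0.32 in log2 (SE, adjusted p = 0.279 by limma)). P4hb, a subunit of prolyl hydroxylase that all secreting cells need, did not pass (0.26) and Pcolce, which aids Bmp1, rose (0.71).

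Of 14 tested mesenchymal identity genes 7 rose and 1 fell. Ddr2, a collagen receptor, had 58.7, 46.2 and 41.9 TPM against 8.43, 13.5 and 13.7 TPM in WT libraries, a change of 1.97 ± 0.21 in log2 (SE, adjusted p = 0.000722 by limma), Tbx15 rose by 1.22, and Osr2 fell, with a log2 change of -0.93. Trunk and limb Hox genes, which mark the body position of fibroblasts, rose in 6 and fell in 0 of 14 tested. Hoxc6 was at 11.6, 11.5 and 7.48 TPM in Lin28a-null libraries against 1.33, 2.79 and 1.52 TPM in WT libraries, a change of 1.97 ± 0.26 in log2 (SE, adjusted p = 0.00156 by limma), while Hoxc4 (0.03) and Hoxa7 (0.50) did not pass. In the smooth muscle and actin list 7 of 10 tested rose and 1 fell, with Flna at 0.53, Tpm1 at 0.45, Tagln2 not passing at -0.10 and Des, desmin, falling, at -0.60. Basement membrane genes, which ES cells make themselves, split, with 4 of 9 up and 3 down. Lamc1 rose by 0.69, and Nid1 and Nid2 changed by -0.32 and -0.75, both falling, as did Lama1, at -0.91.

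Markers of early lineages and of other cell types were measured beside them. Of 7 tested mesoderm and epithelial-mesenchymal transition markers 6 rose, Snai1 by 1.75 and Eomes by 0.94, with Zeb1 at 0.63 not passing. Of this list Zeb1, Zeb2, Snai1, Snai2 and Cdh2 are also expressed by fibroblasts. Of 4 tested primitive endoderm markers 0 rose and Gata4 fell, at -1.24, with Dab2 at 0.44 and Sox17 at 0.26 not passing. Of 10 pluripotency markers 3 rose and 2 fell, against 20.4% and 17.8% of all genes, with a median of 0.06, Pou5f1 at -0.08 and Nanog at -0.01 not passing, and Dppa5a and Zfp42 falling, at -0.46 and -1.38. Their summed level was 7316 to 8056 TPM in Lin28a-null against 8081 to 8328 TPM in WT ES libraries. The part of these movements in the members' rise was not tested.

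Several defining markers of other cell types were near 0 in the cell libraries, but the endothelial list was not. Ptprc, Csf1r and Adgre1 of macrophages were at most at 0.502 TPM in any of the 21, and their list's sum of 61.3 to 63.3 TPM in Lin28a-null and 66.8 to 98.0 TPM in WT ES libraries was nearly all Cd68, a lysosomal gene that other cells make. In the rest of that list C1qa, C1qb, Tyrobp and Lyz2 reached 1.27, 0.868, 0.789 and 7.81 TPM in the 21 libraries. Lyz2, a lysozyme of macrophages, was at 2.52, 1.31 and 1.39 TPM in Lin28a-null against 0.445, 0.927 and 0.272 TPM in WT ES libraries, a change of 0.82 ± 0.26 in log2 (SE, adjusted p = 0.043 by limma). Of 6 endothelial markers 4 averaged 1 TPM or more in Lin28a-null and 2 in WT ES libraries, and they summed to 74.2 to 85.5 TPM in Lin28a-null against 66.8 to 111 TPM in WT ES libraries, although Cdh5 was at most at 0.143 TPM in any of the 21. Eng (-0.19) and Tek (-0.92) did not pass, but Tie1 had 16.7, 16.5 and 14.4 TPM in Lin28a-null libraries against 0.414, 0 and 0.303 TPM in WT ES libraries, a change of 3.78 ± 0.19 in log2 (SE, adjusted p = 3.96e-05 by limma), and rose in DKO over WT iPS cells too, by 3.62. Myod1 and Myog of skeletal muscle reached 0.529 and 0.930 TPM, with Myh3 at most at 0.868 TPM, and Acta1, tested alone of that list, rose by 0.70. Krt5, Krt14 and Trp63 of keratinocytes reached 0.312, 0.440 and 0.557 TPM. Of the chondrocyte markers Acan (-0.04) and Col2a1 (-0.41) did not pass, Matn1 was under the filter and Sox9 rose (1.63). The part of these cell types in the members' rise was not tested.

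The libraries labelled Lin28b-null were compared with the same WT ES libraries, so both comparisons share their controls. By limma 0 members rose, 2 fell and 30 did not pass. At an unadjusted p under 0.05, 1 was higher and 3 were lower, and the share of all genes at that threshold was not computed. Of 15526 genes tested 13.4% rose and 15.1% fell (2087 and 2347 genes), and 2295 rose and 2217 fell under quantile normalization. The median log2 change was -0.07, against -0.01 over all genes, and it turned to 0.35 without WT replicate 2 and to -0.38 without the labelled Lin28b-null replicate 3. Col1a1 had 169, 134 and 339.8 TPM in labelled Lin28b-null libraries against 130.5, 388 and 166 TPM in WT libraries, a change of -0.04 ± 0.46 in log2 (SE, adjusted p = 0.959 by limma). The groups overlapped, with 1 high library in each. The 2 members that fell were Ctgf and Fn1. Ctgf had 258, 219.8 and 184 TPM against 390.0, 549 and 410.2 TPM in WT libraries, a change of -1.02 ± 0.16 in log2 (SE, adjusted p = 0.00418 by limma), and Fn1 had 653, 694 and 669 TPM against 1022, 1395 and 1016 TPM, a change of -0.75 ± 0.12 in log2 (SE, adjusted p = 0.00483 by limma). Neither gene's groups overlapped, and both calls were made in every leave-one-out fit. Without WT replicate 2, Thy1 and Pdgfrb also rose (2 members), by 0.88 and 0.92, and without labelled Lin28b-null replicate 3, Acta2 and Vim also fell (4 members). Over all genes 2419 of 15392 rose in the first of these fits and 2052 of 15464 fell in the second.

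Set directly against each other, Lin28a-null libraries were above labelled Lin28b-null libraries in 31 of 32 members by the same test and below in 0. Of 15974 genes tested 25.8% were above and 21.1% below by that test. At an unadjusted p under 0.05, 0 members were below too, and the share of all genes at that threshold was not computed. Over all genes 4115 rose and 3369 fell, and 3528 rose and 4340 fell under quantile normalization. The members' median was 1.86. Ctgf did not pass, at 266, 249.6 and 232 TPM in Lin28a-null against 258, 219.8 and 184 TPM in labelled Lin28b-null libraries, a change of 0.18 ± 0.12 in log2 (SE, adjusted p = 0.258 by limma). Fn1, with 1345, 1088 and 1189 TPM against 653, 694 and 669 TPM, showed a change of 0.84 ± 0.08 in log2 (SE, adjusted p = 0.000313 by limma), with no overlap. Dcn and Acta2 were furthest apart. Dcn was at 292, 216 and 197 TPM in Lin28a-null against 42.9, 30.6 and 43.2 TPM in labelled Lin28b-null libraries, a change of 2.56 ± 0.19 in log2 (SE, adjusted p = 0.000119 by limma), and Acta2 changed by 2.56.

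**Figure D3:**
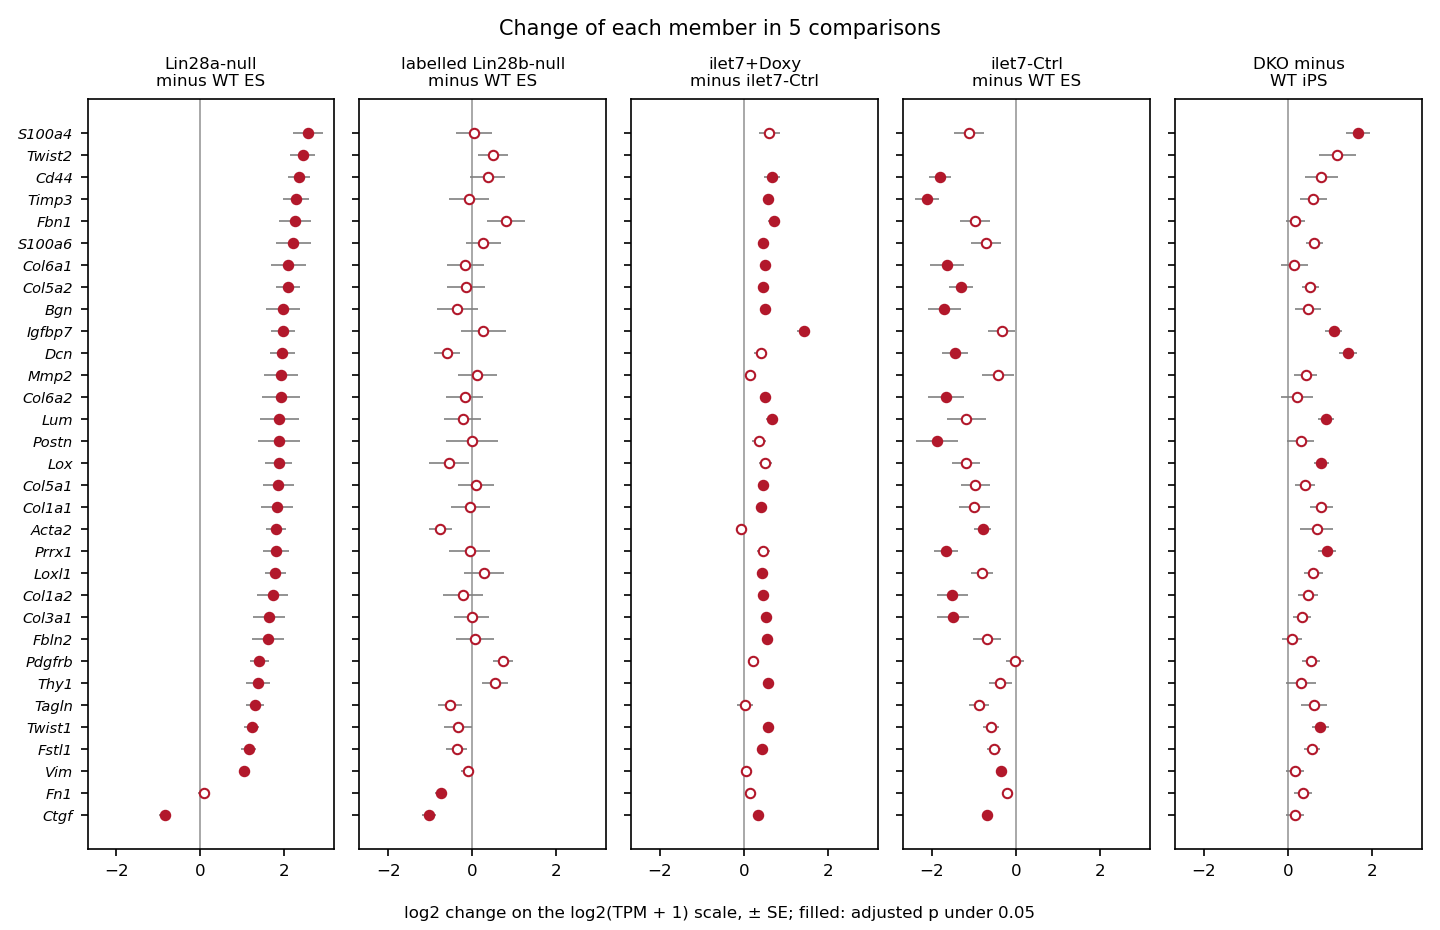
Log2 change of each of the 32 members (rows, ordered by their change in Lin28a-null cells) on the log2(TPM + 1) scale (x axis) in 5 comparisons (panels), with bars of 1 SE and filled points for an adjusted p under 0.05. In the first panel 30 points are filled on the right, Fn1 is open at 0.09 and Ctgf is filled at -0.84, while in the second only Ctgf and Fn1 are filled.

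Doxycycline was given to ilet7 cells to raise let-7, and both groups were ilet7 cells. By limma 20 of 31 members tested rose and 0 fell, against 13.3% and 5.68% of 15884 genes tested, and Twist2 was under the filter. At an unadjusted p under 0.05, 0 members were lower too, and the share of all genes at that threshold was not computed. In 24 members every ilet7+Doxy library lay above every ilet7-Ctrl library, against 26.9% of all genes. The median log2 change was 0.46, against 0.06 over all genes tested. Over all genes 2118 rose and 903 fell, while 1653 and 1475 did under median-of-ratios scaling, and 1489 and 1299 under quantile normalization.

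All 5 fibrillar chains rose with doxycycline, by 0.40 to 0.53. Col1a1 had 145, 127 and 131 TPM in ilet7+Doxy libraries against 91.9, 114 and 100.1 TPM in ilet7-Ctrl libraries, a change of 0.40 ± 0.09 in log2 (SE, adjusted p = 0.027 by limma), and Col3a1 had 100.05, 87.00 and 91.7 TPM against 56.8, 71.2 and 65.02 TPM, a change of 0.53 ± 0.09 in log2 (SE, adjusted p = 0.012 by limma). Igfbp7 stood out, with 35.8, 30.8 and 32.9 TPM against 9.63, 14.8 and 11.4 TPM in ilet7-Ctrl libraries, a change of 1.42 ± 0.15 in log2 (SE, adjusted p = 0.00218 by limma). It was the largest change and the only member that still passed when all 15 ES libraries entered one fit, which shares the spread of the other groups. Fbn1 changed by 0.70, Lum by 0.66 and Cd44 by 0.67. Ctgf, which fell in Lin28a-null cells, rose here, with 333, 352 and 365 TPM against 283, 268 and 279 TPM, a change of 0.34 ± 0.05 in log2 (SE, adjusted p = 0.00555 by limma). No library of one group reached the other for Igfbp7 or Ctgf.

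The cytoskeletal members did not pass with doxycycline. Acta2 was at 11.5, 10.6 and 12.02 TPM in ilet7+Doxy libraries against 11.7, 13.3 and 11.3 TPM in ilet7-Ctrl libraries, a change of -0.08 ± 0.10 in log2 (SE, adjusted p = 0.588 by limma), and Vim was at 111, 105 and 111 TPM against 105, 102 and 108 TPM, a change of 0.06 ± 0.05 in log2 (SE, adjusted p = 0.444 by limma). Fn1, with 1187, 1004 and 1083 TPM against 897, 1031 and 1025 TPM, showed a change of 0.15 ± 0.08 in log2 (SE, adjusted p = 0.23 by limma). All 3 had overlapping groups. Of the 20 calls 10 were made in every leave-one-out fit, those of Col3a1, Col5a1, Fbln2, Bgn, S100a6, Ctgf, Igfbp7, Thy1, Fstl1 and Fbn1. Without ilet7-Ctrl replicate 1 or 3, or ilet7+Doxy replicate 3, 12 members rose, and without ilet7+Doxy replicate 1, 10 did. Over all genes 1489, 1346, 1137 and 1192 rose in these fits, in the same order, against 2118 with all libraries. Outside the members, 7 of 27 tested other matrix genes rose and 3 fell, 1 of 18 collagen assembly genes rose and 5 of 9 basement membrane genes rose and 1 fell, against the 13.3% of all genes that rose and the 5.68% that fell. Lamc1 changed by 0.42 and Nid1 by 0.39.

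The lines themselves differed without any drug. In ilet7-Ctrl cells 14 of 31 members tested fell and 0 rose by adjusted p relative to WT ES cells, against 8.46% and 9.18% of 15693 genes tested. At an unadjusted p under 0.05, 24 were lower and 0 were higher, and the share of all genes at that threshold was not computed. The members' median log2 change was -0.98, against 0.02 over all genes. Over all genes 1327 fell and 1440 rose, and 1573 fell and 1546 rose under quantile normalization. In 25 members every ilet7-Ctrl library was below every WT library, against 19.4% of all genes. Timp3 had 4.36, 5.27 and 4.19 TPM in ilet7-Ctrl libraries against 15.7, 37.4 and 21.5 TPM in WT libraries, a change of -2.12 ± 0.29 in log2 (SE, adjusted p = 0.00506 by limma). Cd44 had 1.83, 2.76 and 2.52 TPM against 8.01, 15.9 and 9.55 TPM in WT libraries, a change of -1.81 ± 0.26 in log2 (SE, adjusted p = 0.00581 by limma), and Prrx1 had 2.20, 2.57 and 2.16 TPM against 6.29, 15.2 and 8.67 TPM, a change of -1.66 ± 0.29 in log2 (SE, adjusted p = 0.0109 by limma). These 3 did not overlap and were the calls made in every leave-one-out fit. Pdgfrb, at 6.22, 6.42 and 7.66 TPM against 5.09, 9.15 and 6.81 TPM, was the member least apart, a change of -0.02 ± 0.21 in log2 (SE, adjusted p = 0.962 by limma). The count was 5, 3 and 4 without ilet7-Ctrl replicate 1, 2 and 3, and 6 without WT replicate 3, while without WT replicate 2 it was 18, with a median of -0.57. Over all genes 622, 625, 601, 648 and 1930 fell in these fits, in the same order, against 1327 with all libraries. Line, transgene and culture cannot be told apart in this comparison, which also shares its WT libraries with the comparisons of both null groups.

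Whether the rise in Lin28a-null cells exceeded that with doxycycline was tested directly, as the difference between the log2 changes over 12 libraries that the comparisons do not share. The change was larger in Lin28a-null cells for 22 of 32 members and smaller for 1, against 12.1% and 16.2% of 16085 genes tested, with a median difference of 1.39. All 4 cross-linking and turnover genes and all 3 cytoskeletal genes were among the 22. Vim had a difference of 0.99 (limma adjusted p = 2.2e-05), and Acta2 of 1.88 (limma adjusted p = 0.000573). The 1 member with a smaller change in Lin28a-null cells was Ctgf, with a difference of -1.17 (limma adjusted p = 0.000263). Igfbp7, at 0.55 (limma adjusted p = 0.291), and Fn1, at -0.06 (limma adjusted p = 0.838), did not pass. Without Lin28a-null replicate 1 the change was larger in 13 members, against 1498 of 16041 genes tested. Without WT replicate 2 it was larger in 30, with a median of 1.81, against 2383 of 16094 genes tested.

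In iPS cells all 32 members had a positive log2 change in DKO over WT libraries. The share of all genes with a positive change was not computed, and most members did not pass. By adjusted p 7 rose and 0 fell, against 8.77% and 7.51% of 17557 genes tested. At an unadjusted p under 0.05, 14 were higher and 0 were lower, and the share of all genes at that threshold was not computed. Over all genes 1540 rose and 1318 fell by adjusted p, while 1364 rose and 1632 fell under quantile normalization, and 1484 and 1504 under median-of-ratios scaling. The median log2 change was 0.56, against 0.04 over all genes, and in 12 members the libraries did not overlap, all with DKO above, against 20.7% of genes. S100a4 had 40.2, 43.4 and 38.4 TPM in DKO libraries against 7.44, 12.5 and 18.9 TPM in WT libraries, a change of 1.66 ± 0.29 in log2 (SE, adjusted p = 0.00967 by limma). Dcn had 149, 183 and 137 TPM against 66.2, 40.5 and 69.9 TPM in WT libraries, a change of 1.42 ± 0.22 in log2 (SE, adjusted p = 0.00609 by limma), and Igfbp7 had 174, 228 and 156 TPM against 85.1, 67.6 and 109 TPM, a change of 1.09 ± 0.20 in log2 (SE, adjusted p = 0.0122 by limma). These 3 genes did not overlap and passed in every leave-one-out fit. Prrx1 (0.93), Lum (0.90), Lox (0.80) and Twist1 (0.77) passed with all libraries, but 3 members rose without any one of WT 1, WT 2, DKO 1 and DKO 2, 4 without DKO replicate 3 and 9 without WT replicate 3. Over all genes 1356, 1006, 974, 889, 941 and 1143 rose in these fits, in the same order, against 1540 with all libraries.

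The collagen chains did not pass in iPS cells. Col1a1 was at 489, 898 and 468 TPM in DKO libraries against 295, 307 and 435 TPM in WT libraries, a change of 0.79 ± 0.27 in log2 (SE, adjusted p = 0.0917 by limma), and Col3a1 was at 916, 942 and 792 TPM against 491, 753 and 919 TPM, a change of 0.34 ± 0.22 in log2 (SE, adjusted p = 0.337 by limma). Col1a1 did not overlap between the groups, DKO replicate 2 being the highest by far, whereas WT replicate 3 reached the DKO range in Col3a1. Ctgf, which moved against the other members in Lin28a-null ES cells, was at 179.8, 316 and 217 TPM in DKO against 215, 171 and 237 TPM in WT libraries, a change of 0.17 ± 0.22 in log2 (SE, adjusted p = 0.643 by limma), with overlap. Among other lists, 5 of 28 tested matrix genes rose and 0 fell, against the 8.77% and 7.51% of all genes, and Thbs1 changed by 0.81 and Hoxc6 by 1.46. As iPS cells come from MEFs and grow on MEFs, RNA of feeders and of fibroblasts left from reprogramming cannot be told apart.

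Ratios to Col1a1 within a library describe how each member stood to Col1a1, and the cells that made either transcript were not tested. Col5a1 kept nearly one ratio to Col1a1 over the 15 ES libraries, 0.221 to 0.281, a span of 1.27 times, and Col1a2 spanned 1.57 times and Col3a1 1.67 times. At the other end Fn1 spanned 6.79 times, Ctgf 10.3 times and Twist2, which is near 0 in ilet7 cells, 23.6 times. Of 31 members 7 stayed within 2 times in ES libraries and 17 in the 6 iPS libraries, and 22 and 30 stayed within 3 times. So the collagens went up and down together across the ES groups, and Fn1 and Ctgf did not.

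The ratios to Col1a1 differed between groups as well. Col1a2 over Col1a1 was 0.691 to 0.700 in Lin28a-null, 0.630 to 0.688 in labelled Lin28b-null, 0.537 to 0.545 in ilet7+Doxy, 0.502 to 0.544 in ilet7-Ctrl and 0.711 to 0.788 in WT ES libraries. It was 1.13 to 1.65 in DKO and 1.49 to 1.99 in WT iPS libraries, above every ES library. Igfbp7 over Col1a1 was 0.242 to 0.252 in ilet7+Doxy against 0.105 to 0.129 in ilet7-Ctrl libraries, so Igfbp7 went up by more than Col1a1 did. Ctgf over Col1a1 was 0.298 to 0.371 in Lin28a-null against 1.42 to 2.99 in WT ES libraries. Bgn over Col1a1 differed between ES groups too, within 0.347 and 0.731. It was 0.693 to 0.731 in Lin28a-null, 0.621 to 0.679 in WT and 0.510 to 0.529 in labelled Lin28b-null libraries. In ilet7+Doxy it was 0.388 to 0.430 and in ilet7-Ctrl 0.347 to 0.434. These ratios were given no test.

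**Figure D4:**
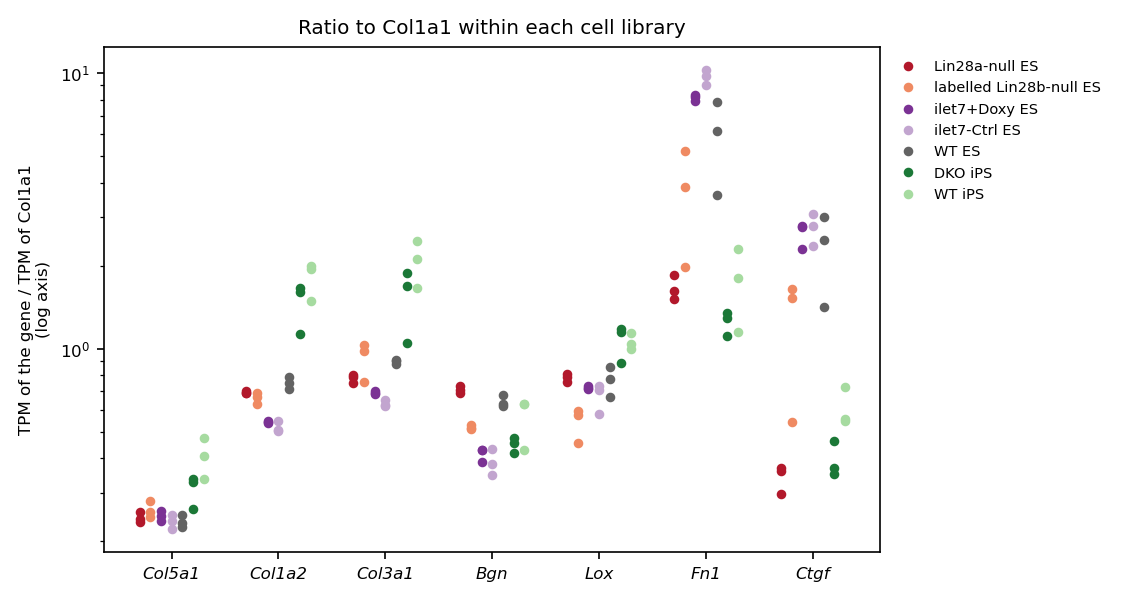
TPM of 7 members divided by the TPM of Col1a1 in the same library, on a log axis (y axis), with one dot per cell library coloured by group. Col5a1 lies between 0.221 and 0.281 in all ES libraries, Col1a2 is above 1 only in iPS libraries, and Fn1 and Ctgf spread widely over the ES groups.

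Likeness among the members was described by the correlation of each with the mean log2(TPM + 1) of the others over the 15 ES libraries, where libraries of one group share a line and so are not independent. Pearson's r was highest for Col5a1, Col5a2 and Col1a1, each at 0.996, and above 0.92 for 28 members. It was 0.89 for Pdgfrb, 0.79 for Igfbp7, 0.36 for Fn1 and -0.21 for Ctgf. Outside the members 279 of 10695 genes averaging 5 TPM or more (2.61%) had an r above 0.9 with the members' mean, so many genes followed the same order of libraries. The 10 most alike were Anxa1, Gsn, Cd248, Osmr, Mrc2, Timp2, Col12a1, Gja1, Thbs2 and Sema3c, with r between 0.989 and 0.996. Only 3 of these 10 stayed in the first 10 by Spearman's rho, and 2 by likeness to the log2 of the summed level. Cd248, endosialin, a surface protein of stromal cells, lay between 54.4 and 78.2 TPM in Lin28a-null and 6.96 and 20.1 TPM in WT ES libraries, and Timp2 between 158 and 246 TPM in Lin28a-null and 23.3 and 74.0 TPM in WT ES libraries.

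The embryo pools, which have no feeders, gave a level for these genes without MEF RNA, with 1 library each and no test. Of the 32 members 9 reached 1 TPM in each pool, 2 reached 10 TPM, and 10 were listed at 0. S100a6 was at 182 TPM in the siLin28 pool and 94.7 TPM in the WT pool, within the range of the ES libraries (19.1 to 207 TPM) and most of the embryos' sum. Ctgf was at 17.8 TPM and 23.5 TPM, Fn1 at 8.31 TPM and 7.60 TPM, and Vim at 4.99 TPM and 1.06 TPM in the siLin28 and the WT pool. All 3 of these were far below every cell library. Without Fn1, Vim, S100a6, Cd44 and Thy1, the sum of the other 27 was 29.9 TPM in the siLin28 pool and 39.7 TPM in the WT pool. In any ES library it was 877 TPM or more. That sum still held Ctgf, at 17.8 TPM and 23.5 TPM in the pools, while Cd44, left out of it, was at 0 in both. The embryo sum depended on the genes left out. Without Fn1, Ctgf and Vim instead, the other 29 members summed to 196 TPM in the siLin28 pool and 111 TPM in the WT pool. Most of that was S100a6, and the same 29 summed to 623.5 TPM or more in any ES library.

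Col1a1 was at 0.253 TPM in the siLin28 pool and 0.197 TPM in the WT pool, and Col3a1 at 0.00356 TPM and 0.0629 TPM. Col1a2, Col6a2, Dcn, Cd44, Twist1, Igfbp7, Lum and Prrx1 were listed at 0 in both pools. Fbln2, at 3.44 TPM in the siLin28 pool and 6.43 TPM in the WT pool, was above 1 TPM in both. Among the genes most like the members, Gja1, connexin 43, was at 331 TPM in the siLin28 pool and 381 TPM in the WT pool, and Gsn, gelsolin, at 29.02 and 29.16 TPM, the highest 2 of those 10 in the embryos. The tables were normalized separately, and embryo and cell levels are set side by side without a test.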

How the data were processed

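RNA from 15 ES cell, 6 iPS cell and 2 embryo libraries was read as TPM. The authors made the deposited TPM values per gene in 3 separate tables: reads called with CASAVA 1.8 were trimmed with Trimmomatic, aligned to mm10 with HISAT2, freed of duplicates with Picard and quantified with StringTie against GENCODE. TPM is scaled per library, so a change in abundant genes shifts all others, and depth is not kept. Genes averaging 1 TPM or more in the compared libraries were tested with limma 3.58.1 in R 4.3.3 on log2(TPM + 1), two-sided, with a mean-variance trend and Benjamini-Hochberg adjustment over all genes tested, and the script was tested on simulated data. The study's own differential tests used counts, which were not used here. Values in every library are given for the most abundant members of each role, and for members against the majority; from every other list, the 3 most abundant genes and any moving against the list; and the 10 genes most alike. Other genes were named after their values were seen. The members and lists were chosen with earlier results of these data known. Coordinates came from a GENCODE annotation of mm10, matched by gene ID for all 32 members. Alternatives were another pseudocount, filter, normalization, trend, sample set, replicate block, and each library left out.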

Additional observations from a re-analysis of the deposited data

Results flagged for a closer look

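The change in Lin28a-null cells over WT ES cells was larger than the change with doxycycline over ilet7-Ctrl cells in 22 members, by the limma test of the difference itself, against 12.1% of all genes tested. Ctgf went the other way, with a difference of -1.17 on the log2 scale, from a change of -0.84 in Lin28a-null cells and 0.34 with doxycycline. Without Lin28a-null replicate 1 the first count was 13, against 1498 of 16041 genes tested. Ctgf was the 1 member with a smaller change in every fit with a library left out.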

How the results depend on the processing

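No called member changed direction under any alternative run. The log2 ratio of summed levels was 1.71 for Lin28a-null over WT ES cells as a mean of log2 values, against 1.07, and for doxycycline 0.45 as that mean and 0.44 without Fn1, Vim, S100a6, Cd44 and Thy1, against 0.29. For ilet7-Ctrl over WT ES cells it was -1.14 without those 5 genes, against -0.73. In labelled Lin28b-null cells 1 member rose under quantile normalization, median-of-ratios scaling or one fit of all ES libraries, against 0. Over all genes 2295, 2147 and 3038 rose in these fits, in the same order, against 2087. With doxycycline 12 rose without a filter, 1 in one fit of all ES libraries and 11 with the replicate block, against 20. Over all genes 1585 of 29081, 1413 of 15884 and 1231 of 15884 rose in these fits, against 2118 of 15884. In DKO cells 4 rose without a filter, against 7, and in ilet7-Ctrl cells 6 fell without a filter and 9 without a variance trend, against 14. Over all genes 1318 of 32249 rose in that DKO fit, against 1540 of 17557. In the ilet7-Ctrl fits 970 of 28780 and 1157 of 15693 genes fell, against 1327 of 15693. Of the 10 most alike genes 3 were shared by Spearman's rho and 2 by the summed level. The causes were not tested.

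With each library left out, 25 to 30 members rose in Lin28a-null cells, 0 to 2 rose and 2 to 4 fell in labelled Lin28b-null cells (median -0.38 to 0.35), 10 to 17 rose with doxycycline, 3 to 9 rose in DKO cells and 3 to 19 fell in ilet7-Ctrl cells. For the difference of effects 13 to 30 were larger, with a median of 1.10 to 1.81. Same-numbered libraries did not deviate together (r between -0.142 and 0.129 over 18 pairs), so numbers name libraries only. Depth is unknown in TPM, which limits low genes such as Twist2 most.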
